A study of Bos taurus with 16 samples.

Results

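MCAM and 9 other genes of blood vessels, PECAM1, VWF, CDH5, KDR, FLT1, TEK, TIE1, ENG and VEGFA, were followed in the circulating leukocytes (white blood cells, WBC) and in the endometrium of dairy cows. Every non-control probe that the array names after 1 of these 10 genes was taken, which gave 30 of 46615 probes. MCAM was chosen by its values in WBC, where 1 of its probes differed between cows with subclinical endometritis (SCE) and healthy cows, so that difference is given as a description with no test. The other 9 genes were taken as known endothelial or angiogenic genes. The animals were 4 multiparous Holstein-Friesian cows with SCE (718, 833, 836 and 846), an endometritis without clinical signs that was diagnosed by histology, and 4 healthy cows (841, 850, 877 and 883). They were between 4 and 10 years old. At 45 to 55 days postpartum each cow gave 1 PAXgene blood sample for WBC and 1 transcervical biopsy of the endometrium, and each RNA was hybridized to 1 one-color array. The methods place 3 SCE cows in the luteal and 1 in the follicular phase, and healthy cows 2 and 2, without naming which cow was in which phase.

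The endothelium lines blood vessels, and its cells are held together by adhesion molecules such as PECAM1 and the cadherin CDH5. VEGFA, released by many cell types, acts on the endothelial receptors KDR and FLT1, while TEK is the receptor of the angiopoietins and TIE1 its partner. ENG is a co-receptor for the TGF-beta family, VWF is the clotting factor carrier stored in endothelium and platelets, and MCAM is an adhesion molecule of endothelium, pericytes and smooth muscle. The endometrium is known for the growth and regression of its vessels with the estrous cycle.

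Values are log2 intensities after quantile normalization over the 16 arrays, and they compare the same probe between arrays, not one probe with another. The arrays of a tissue shared 1 slide that held no array of the other tissue, so that slide and tissue cannot be told apart. Net of local background, the median spot had a signal of 79.0 in the endometrium of SCE cow 833, of 248 to 316 in the other 7 endometrium arrays, of 202.5 in the WBC of cow 833 and of 83.0 to 132 in the other 7 WBC arrays. The endometrium array of cow 833 also had the lowest median correlation with the other arrays of its tissue, 0.940, against 0.973 to 0.979, and so did the WBC array of that cow, 0.972, against 0.984 to 0.989. As a check of the labels, 8 of 8 leukocyte genes were lower in the endometrium of healthy cows than in their WBC in limma's adjusted test, whereas 6 of 11 epithelial and 6 of 10 stromal genes were higher and 3 and 1 of them lower. Over all genes, 5541 of 26729 were higher and 7402 lower. In bulk RNA, fewer cells of a type and less RNA per cell cannot be told apart.

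MCAM was read by 3 probes that did not behave alike, and their sequences are shown for that reason. By the coordinates that the array files give on Btau_3.1, all lie on the minus strand of chromosome 15. Probe A_73_P108951 maps to chr15:28409497-28409530 (34 of its 60 bases), A_73_P045136 to chr15:28409598-28409657 and A_73_P075166 to chr15:28411078-28411137. The first 30 bases of A_73_P108951, bases 6 to 35 of A_73_P045136 and all 60 bases of A_73_P075166 read, 5′ to 3′, as follows.
A_73_P108951: taaagttatattagcaccagggttcctaat
A_73_P045136: tgtatGTGTGTGTgcGTGTGTGTatatata
A_73_P075166: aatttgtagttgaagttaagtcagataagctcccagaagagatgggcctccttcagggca
The capitals mark the run GTGTGTGT, which was searched for together with its reverse complement ACACACAC. A_73_P045136 was the only 1 of the 30 probes that held either run, and 267 of all 46615 probes (0.573%) did.

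Probe A_73_P108951 is the one whose WBC values brought MCAM into the set. Its WBC level was 8.37, 7.18, 7.72 and 7.50 for healthy cows 841, 850, 877 and 883. For SCE cows 718, 833, 836 and 846 it was 6.66, 6.60, 6.74 and 7.09. All 4 SCE cows lay below all 4 healthy cows, by a mean log2 difference of -0.92 (standard error 0.24), which was -0.86 without cow 833. In the endometrium the same probe read 11.67, 13.08, 11.96 and 11.45 for the healthy cows and 12.04, 14.08, 11.80 and 11.83 for the SCE cows, so that the groups overlapped there. The order of the 4 groups was endometrium of SCE cows with 12.44 ± 1.10 (SD, n = 4), endometrium of healthy cows with 12.04 ± 0.72, WBC of healthy cows with 7.69 ± 0.50 and WBC of SCE cows with 6.77 ± 0.22. The pair of endometrial groups did not differ beyond their spread, and no endometrial array reached down to a WBC array. The probe was well above background on all 16 arrays.

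The other MCAM probes did not show the WBC pattern. A_73_P045136, which holds the GT run, read 13.92, 13.90, 14.55 and 14.31 in healthy WBC against 13.87, 14.86, 14.25 and 14.14 in SCE WBC, a difference of 0.11 (standard error 0.23). Its endometrial values were 14.37, 14.82, 14.10 and 13.83 for the healthy and 14.62, 14.40, 14.35 and 14.25 for the SCE animals. This probe thus overlapped between all 4 groups, the tissues included. A_73_P075166 lay between 5.74 and 6.48 in WBC and was well above background on 1 of 8 WBC arrays, so that its WBC difference of 0.01 (standard error 0.18) compares values near background. Its endometrial values were 8.26, 9.34, 8.37 and 8.17 for the healthy and 8.50, 9.95, 8.38 and 8.35 for the SCE animals. With A_73_P108951 it shared the order of the endometrial arrays at the top, where SCE cow 833 was highest and healthy cow 850 came next.

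**Figure D1:**
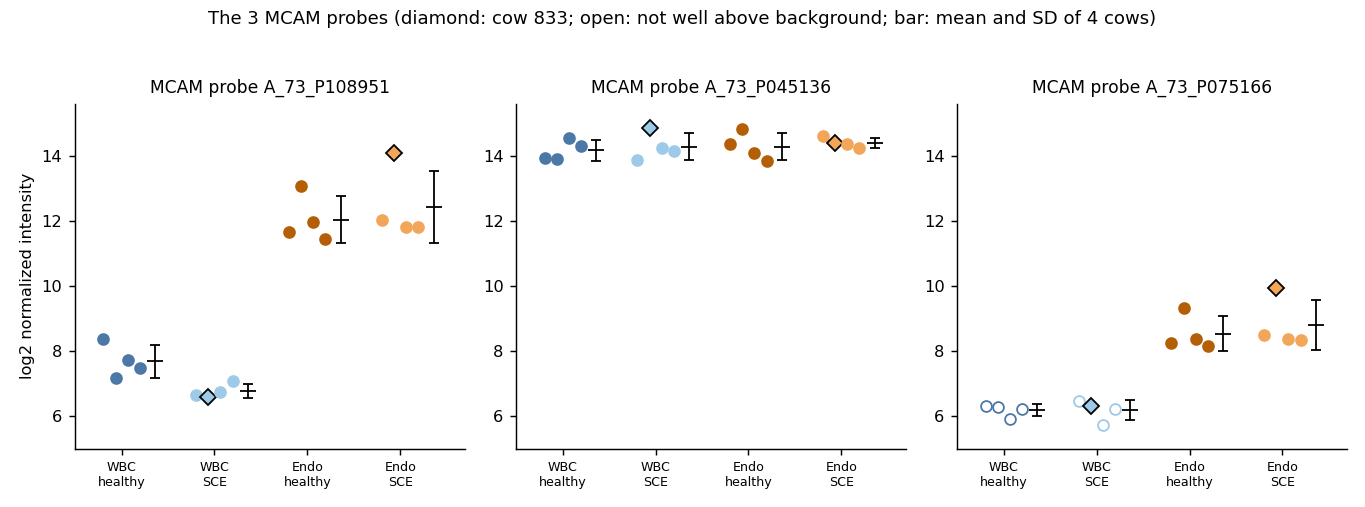
Log2 normalized intensity (vertical axis) of the 3 MCAM probes in WBC and endometrium (Endo) of healthy and SCE cows, 1 point per cow, with the mean and SD of 4 cows beside the points. SCE cow 833 is drawn as a diamond and open points were not well above background. A_73_P108951 separates the WBC of SCE cows (6.60 to 7.09) from that of healthy cows (7.18 to 8.37), A_73_P045136 lies between 13.83 and 14.86 in every group, and A_73_P075166 is open on 7 of 8 WBC arrays.

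Among the other members, no probe separated SCE from healthy cows in WBC. Of the 30 probes, 1 lay lower in all SCE cows than in all healthy cows (the MCAM probe above; 0.760% of all probes did) and 0 lay higher (0.616% of all probes). Over all probes, 0.0408% passed limma's unadjusted TREAT test, which asks whether a difference exceeds 1.2-fold, as lower in SCE cows and 0.0815% as higher. Nothing is read from these counts for the members, since the contrast chose the gene. The brightest probes of the 9 other genes differed by between -0.13 for TIE1 and 0.20 for VWF. The second probe of PECAM1, A_73_104687, had the largest difference of the others, 0.50 (standard error 0.30), with values of 8.65, 8.85, 7.36 and 8.32 for the healthy and 8.71, 8.53, 8.79 and 9.13 for the SCE animals.

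WBC carried signal for some of these genes and not for others. Of the 30 probes, 13 were well above background on all 8 WBC arrays, 7 on some and 10 on none, whereas 27 were well above background on all 8 endometrium arrays. The 3 probes of CDH5, which joins endothelial cells to each other, and the 3 probes of the VEGFA receptor FLT1 did not rise well above background in the WBC of any cow. The TEK probe reached it on 1 WBC array, that of SCE cow 833 (6.19), which was the brightest WBC array. PECAM1 and VWF were well above background in WBC of all 8 cows by their brightest probes, as were KDR, TIE1, ENG and VEGFA. Which cells in the blood samples gave these signals was not tested. VWF was highest in the WBC of SCE cow 846, with 9.90 against 8.56 to 9.22 in the other 7 cows by its brightest probe, and its next brightest probes, A_73_P138521 (9.22) and A_73_P450736 (7.76), were also highest in that cow.

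Most of these genes were far higher in the endometrium than in WBC. In healthy cows, 20 of 30 probes were higher in the endometrium after Benjamini-Hochberg adjustment of limma's TREAT test over all probes and 0 were lower, while 19.7% of all probes were higher and 26.8% lower. Among SCE cows, 19 of 30 were higher and 0 lower, against 19.3% and 26.0% of all probes. Unadjusted, 20 member probes were higher in healthy cows (21.6% of all probes) and 25 in SCE cows (21.3% of all probes), and 0 were lower in either (29.7% and 29.1% of all probes). Without overlap between the 4 arrays of each tissue, 26 of 30 probes were higher in healthy cows (24.3% of all probes) and 24 of 30 in SCE cows (18.4% of all probes). The 30 probes include MCAM A_73_P108951, whose WBC values chose the gene and enter this difference. It is among those counted as higher in both groups of cows, which is no test for that probe. By the brightest probe of each gene, the median difference was 2.33 in healthy and 2.58 in SCE cows, against a median of -0.16 and -0.14 over all genes. The scaling moves this reference. With each tissue normalized on its own, the median of all genes became 0.32 in healthy cows, 36.9% of all probes were higher and 9.08% lower, and 24 member probes were higher and 0 lower. Under this scaling the SCE cows gave a median of 0.34, 36.1% of all probes higher and 8.50% lower, and 27 member probes higher and 0 lower. Relative to the median of all genes, the members then lay 2.64 and 2.87 higher, against 2.49 and 2.73 before. Over the other scalings this value ran from 1.93 to 3.66. The lowest was with normexp background correction in healthy cows, the highest with the scanner software's processed signal in SCE cows.

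TEK and KDR had the largest differences among the brightest probes. TEK, the angiopoietin receptor, measured 10.97, 11.59, 11.50 and 11.00 in the endometrium of healthy cows 841, 850, 877 and 883 and between 5.45 and 5.73 in their WBC. No healthy WBC array was well above background for TEK, so the difference is a bound, at least 50.7-fold higher in the endometrium (limma, adjusted p = 1.33e-08). KDR, the main signaling receptor for VEGFA, measured 11.58, 11.90, 11.82 and 11.12 in the endometrium of healthy cows and between 6.86 and 7.34 in their WBC. Its log2 difference was 4.58 (standard error 0.36; limma, adjusted p = 6.16e-08), close to 4.63 in SCE cows. FLT1 was at least 5.89-fold higher in healthy cows (limma, adjusted p = 4.61e-05). TIE1, the partner of TEK, differed by 1.71 (standard error 0.26; limma, adjusted p = 0.000171). ENG, the co-receptor, was 13.59 ± 0.37 (SD, n = 4) in the endometrium and 10.80 ± 0.55 in WBC of healthy cows, a difference of 2.78 (limma, adjusted p = 6.55e-05).

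Of the adhesion molecules and the secreted proteins, VWF and CDH5 passed and PECAM1 and VEGFA did not by their brightest probes. VWF measured 12.69, 12.72, 12.16 and 11.58 in the endometrium of healthy cows and between 8.58 and 9.22 in their WBC, a difference of 3.43 (standard error 0.53; limma, adjusted p = 8.42e-05). CDH5 was at least 4.28-fold higher in the endometrium (limma, adjusted p = 0.000209). MCAM was at least 5.09-fold higher by A_73_P075166 (limma, adjusted p = 4.60e-05). By A_73_P108951, whose WBC values chose the gene, the difference was 4.35 in healthy cows and 5.67 in SCE cows, given with no test. By A_73_P045136 it was 0.11 in healthy and 0.13 in SCE cows, and with the scanner software's processed signal it was -0.51 and -0.38.

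PECAM1 measured 10.67, 11.31, 10.82 and 10.26 in the endometrium of healthy cows and 11.39, 11.22, 11.07 and 10.77 in their WBC by its brightest probe, A_73_P285396. The tissues overlapped, and the difference of -0.35 (standard error 0.68; limma, adjusted p = 0.80) became 0.58 with each tissue normalized on its own. That scaling also moved the median of all genes from -0.16 to 0.32. In SCE cows the difference was 0.24, but without cow 833 it was -1.03, past the test (limma, adjusted p = 0.00854). The probes of PECAM1 A_73_104687 and A_73_P031916 lay higher in the endometrium of healthy cows by 1.21 and 0.94, and neither passed the adjusted test. The first 30 bases of the 2 probes that differed most are given here, since they sit 48.3 kb apart along the gene.
A_73_P285396: aaaggctcctgtacatttcacaattgaaaa
A_73_104687: attttttgttatttattccttgctaaaagg
VEGFA, the ligand, measured 8.61, 8.76, 8.24 and 7.96 in the endometrium of healthy cows and 8.03, 7.59, 7.77 and 7.72 in their WBC by its brightest probe. That difference of 0.62 (standard error 0.21; limma, adjusted p = 0.10) did not pass, but it became 1.50 and passed with each tissue normalized on its own. Under that scaling 36.9% of all probes passed as higher. Its probe A_73_115644, which shares 31 bases with the brightest one, differed by 1.38 (limma, adjusted p = 0.000597) and A_73_P107636 by 1.36 (limma, adjusted p = 0.0176).

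**Figure D2:**
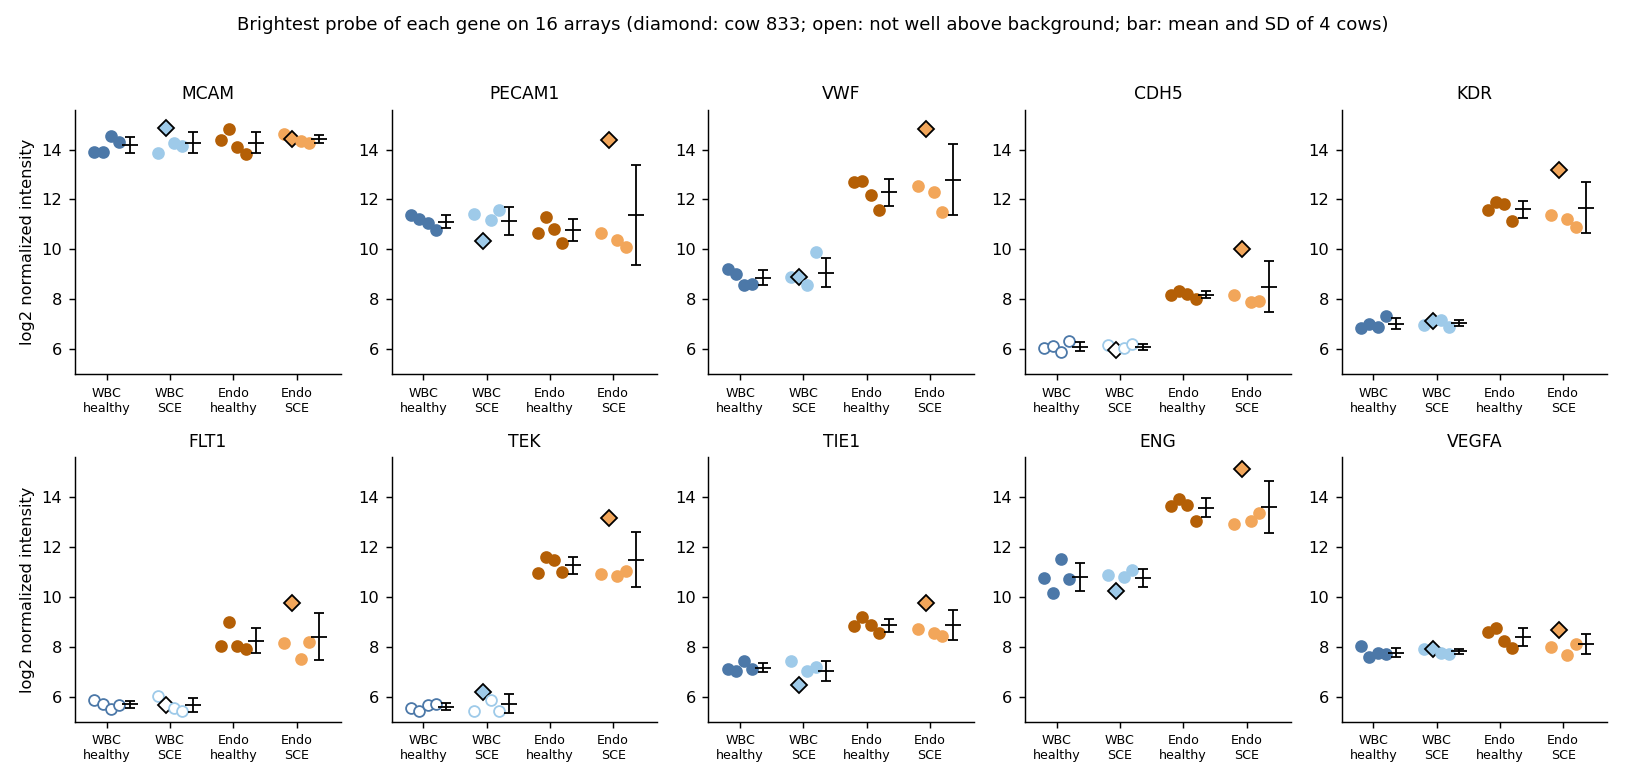
Log2 normalized intensity (vertical axis) of the brightest probe of each of the 10 genes in the 4 groups, 1 point per cow, with the mean and SD of 4 cows. SCE cow 833 is drawn as a diamond and open points were not well above background. TEK and KDR lie far higher in the endometrium than in WBC, PECAM1, MCAM and VEGFA overlap between tissues by these probes, and the diamond of cow 833 tops the endometrium for 8 of the 10 genes.

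Probes of one gene differed in the size of the tissue difference. For VWF, with 7 probes, the 3 nearest the 3′ end (within 17.5 kb of each other on Btau_3.1) differed by 3.43, 3.54 and 2.77 in healthy cows. The 4 others, 38.2 to 120 kb away from the most 3′ probe, differed by 1.17, 0.30, 0.77 and 1.01. For ENG, with 4 probes, the difference fell with distance from the 3′ end, from 2.78 to 1.98 at 1.49 kb, 1.44 at 2.54 kb and 0.74 at 11.0 kb. KDR had 4.58 at its 3′ probe and 1.50 at the other, 14.7 kb away. FLT1 differed by 2.56 at its middle probe against 1.13 and 1.38 at the others, and CDH5 by 0.40 at its middle probe against 2.10 and 2.34. All FLT1 and CDH5 probes, the second KDR probe, the farthest ENG probe and the 4 distant VWF probes were well above background on few or no WBC arrays, so that their differences are limited by how bright the probe was in the endometrium and their order cannot be read.

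**Figure D3:**
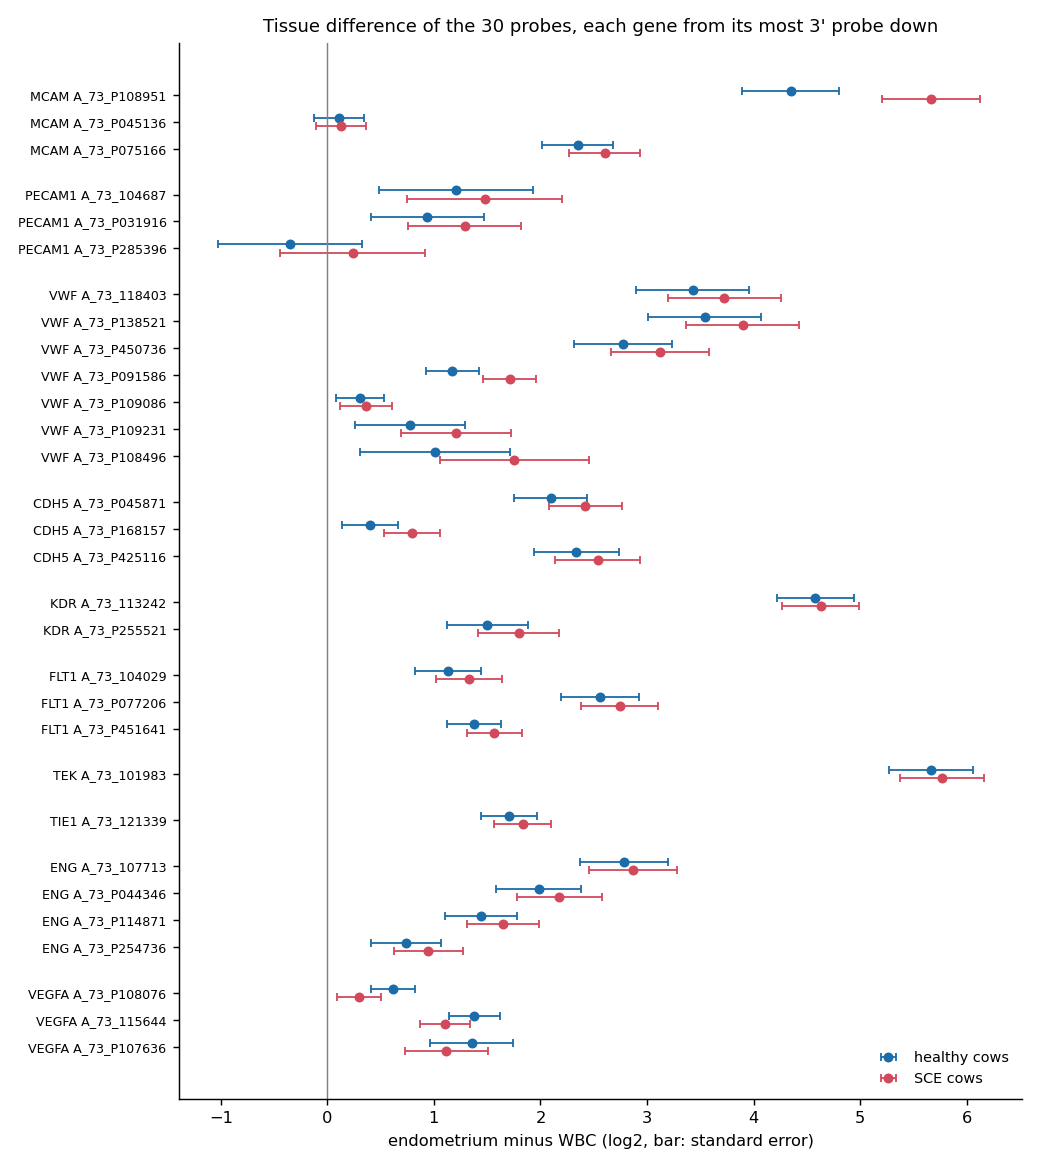
Endometrium minus WBC (horizontal axis, log2, bars are standard errors of the limma fit) for each of the 30 probes in healthy and SCE cows, with the probes of a gene listed from the most 3′ one. The MCAM probe A_73_P045136 sits near 0 (0.11 and 0.13), the TEK probe is near 5.7 in both groups of cows, and the ENG probes fall from 2.78 to 0.74 in healthy cows.

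The difference between tissues was set against SCE status in the same model, which asks whether SCE moves a gene differently in endometrium and WBC. By limma's TREAT test, 0 of 30 member probes passed after adjustment, as did 0.00% of all probes, and 0 passed unadjusted in either direction, against 0.245% of all probes with a larger and 0.251% with a smaller difference in SCE cows. Over the 27 probes of genes other than MCAM, the values ran from -0.32 for the brightest VEGFA probe to 0.74 for a VWF probe (A_73_P108496). The 30 probes also include MCAM A_73_P108951, whose WBC values chose the gene and enter this contrast, so its place in the counts is no test. Its value was 1.32 (standard error 0.65), given with no test, and without cow 833 it was 0.71. Leaving out that cow turned the sign of 8 of the 10 brightest probes from positive to negative, all but those of MCAM and VEGFA. Its endometrium was the highest of the 8 endometrium arrays for those 8 probes, so the turn is no test of SCE. PECAM1 moved from 0.59 to -0.68, VWF from 0.30 to -0.44, CDH5 from 0.32 to -0.23 and ENG from 0.08 to -0.60. KDR (0.05 to -0.42), TEK (0.11 to -0.30), FLT1 (0.19 to -0.26) and TIE1 (0.13 to -0.36) did the same, and none of the 8 passed either way.

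In the endometrium, no member passed the test of SCE against healthy cows. Of the 30 probes, 0 passed limma's TREAT test after adjustment and 0 unadjusted in either direction, where 0.258% of all probes passed unadjusted as higher and 0.195% as lower. No member probe was without overlap between the groups (0.790% of all probes higher, 0.966% lower). The smallest unadjusted TREAT p was 0.23, for the VWF probe A_73_P091586, with a difference of 0.53 (standard error 0.32), and its two-sided exact permutation p over the cows was 0.14, where 4 cows against 4 allow no p below 0.029. The largest difference was 0.81 (standard error 0.93), for the VWF probe A_73_P108496.

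One animal set the sign of most of these differences. The endometrium of SCE cow 833 was the highest of the 8 endometrium arrays for 28 of the 30 member probes, while that array was the highest for 27.6% of all probes. PECAM1 measured 10.64, 14.37, 10.37 and 10.10 in SCE cows 718, 833, 836 and 846, against 10.26 to 11.31 in the healthy cows. VWF measured 12.52, 14.83, 12.30 and 11.51 in the SCE cows, against 11.58 to 12.72. ENG measured 12.91, 15.15, 13.04 and 13.39, against 13.06 to 13.93. In each of these genes the other 3 SCE cows lay within or below the range of the healthy cows. CDH5 measured 8.17, 10.03, 7.90 and 7.91 in the SCE cows, against 8.02 to 8.34, and TEK 10.93, 13.17, 10.85 and 11.04, against 10.97 to 11.59. KDR measured 11.39, 13.19, 11.20 and 10.90 in the SCE cows, FLT1 8.17, 9.75, 7.51 and 8.21, and TIE1 8.72, 9.75, 8.55 and 8.43. Both exceptions were the MCAM probe with the GT run (14.40, where healthy cow 850 had 14.82) and the brightest VEGFA probe (8.68, where healthy cow 850 had 8.76). Healthy cow 850 was the second highest array for 24 of the 30 probes, against 14.0% of all probes.

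With all 8 cows, 26 of the 30 probes had a positive and 4 a negative difference between SCE and healthy animals (median 0.25), while 50.9% of all probes had a negative one. Without cow 833, 3 were positive and 27 negative (median -0.25), while 55.7% of all probes were negative and their median was -0.02. Cow 833 was the highest array for 28 of the 30 probes, so leaving it out had to lower the SCE mean of those 28. It was highest for 27.6% of all probes, which are thus no like reference, and the turn of sign is no test of SCE. Healthy cow 850, second highest for 24 of the 30, stayed in. The endometrial difference of PECAM1 turned from 0.61 (standard error 0.88) to -0.39 (0.25), that of VWF from 0.50 (0.66) to -0.18 (0.35), that of ENG from 0.03 (0.48) to -0.47 (0.22) and that of KDR from 0.07 (0.47) to -0.44 (0.22). None of the 30 passed limma's test without cow 833 either, unadjusted or adjusted (0.384% of all probes passed unadjusted as higher and 0.155% as lower). One probe, VEGFA A_73_P107636, was then lower in all 3 SCE cows (6.32 to 6.65) than in all 4 healthy cows (6.73 to 8.12), by -0.66 (standard error 0.33), as were 2.52% of all probes. Its two-sided exact permutation p was 0.086, where 3 cows against 4 allow no p below 0.029. Its 60 bases are shown because it is the only member probe without overlap there.
A_73_P107636: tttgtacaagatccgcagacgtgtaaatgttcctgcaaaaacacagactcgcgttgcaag

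**Figure D4:**
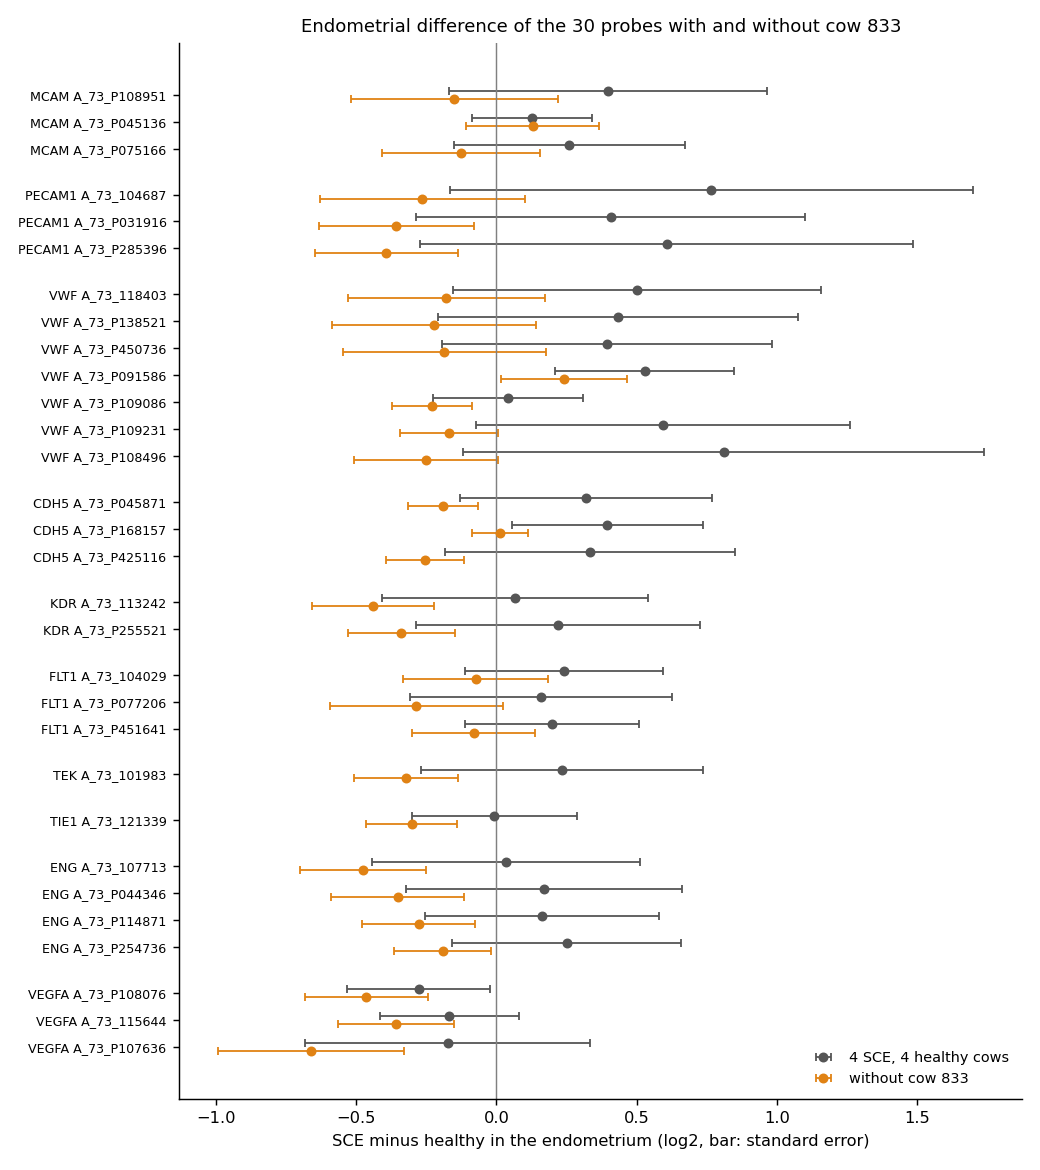
SCE minus healthy in the endometrium (horizontal axis, log2, bars are standard errors of the limma fit) for the 30 probes, with all 8 cows and without SCE cow 833. With all cows 26 of the 30 points lie above 0, and without cow 833 only 3 do.

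Other vascular genes moved with the members in cow 833, and markers of other cells are given beside them. Over the brightest probes of the 10 members, cow 833 lay 1.78 above the median of the other 7 endometrium arrays, by 0.05 for MCAM up to 3.73 for PECAM1, where the median over all genes was 0.02. Cow 833 was the highest array for 16 of 24 genes of the endothelial surface and junctions (median 1.58), 11 of 15 angiogenic receptors (1.11), 11 of 17 endothelial transcription factors (1.08) and 9 of 18 angiogenic ligands (0.65), against 29.0% of all genes. Pericyte and vascular smooth muscle genes had a median of 0.02 with 1 of 9 highest, and platelet genes 0.11 with 3 of 9. Anti-angiogenic genes lay lower, with a median of -0.87 and 4 of 10 lowest, against 26.1% of all genes. Stromal genes lay at -1.02 with 0 of 10 highest and 5 of 10 lowest, and leukocyte genes at -0.18 with 1 of 8 highest and 4 of 8 lowest. The mean level of the stromal list was 14.46, 13.46, 13.83 and 14.97 in SCE cows 718, 833, 836 and 846. Healthy cows lay between 14.44 and 14.91, above both cow 833 and cow 836. Epithelial genes had a median of -0.42 with 3 of 11 highest. The mean level of the pericyte list ran from 11.26 to 11.92 in SCE cows, within the range of the healthy cows, and that of the leukocyte list reached 11.23 in SCE cows and 10.54 in healthy cows. All genes of the stromal, epithelial, pericyte and leukocyte lists were well above background on all 8 endometrium arrays. Among neutrophil genes the median was 0.57 with 4 of 8 highest, from -0.12 up to 3.48 for S100A9, a subunit of calprotectin. T cell genes had a median of -0.17 with 4 of 14 highest and 6 lowest, and B cell genes -0.02 with 2 of 5 highest. Monocyte genes had 0.21 with 2 of 8, erythroid genes 0.27 with 2 of 8, and genes of hypoxia and VEGFA regulation 0.04 with 4 of 13. The part of these markers, and of the dim array, in the members' values of cow 833 was not tested. The members' median in cow 833 lay between 1.72 and 1.91 under 5 other ways of processing the signals. The highest, with the processed signal, came with a median over all genes of 0.33.

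**Figure D5:**
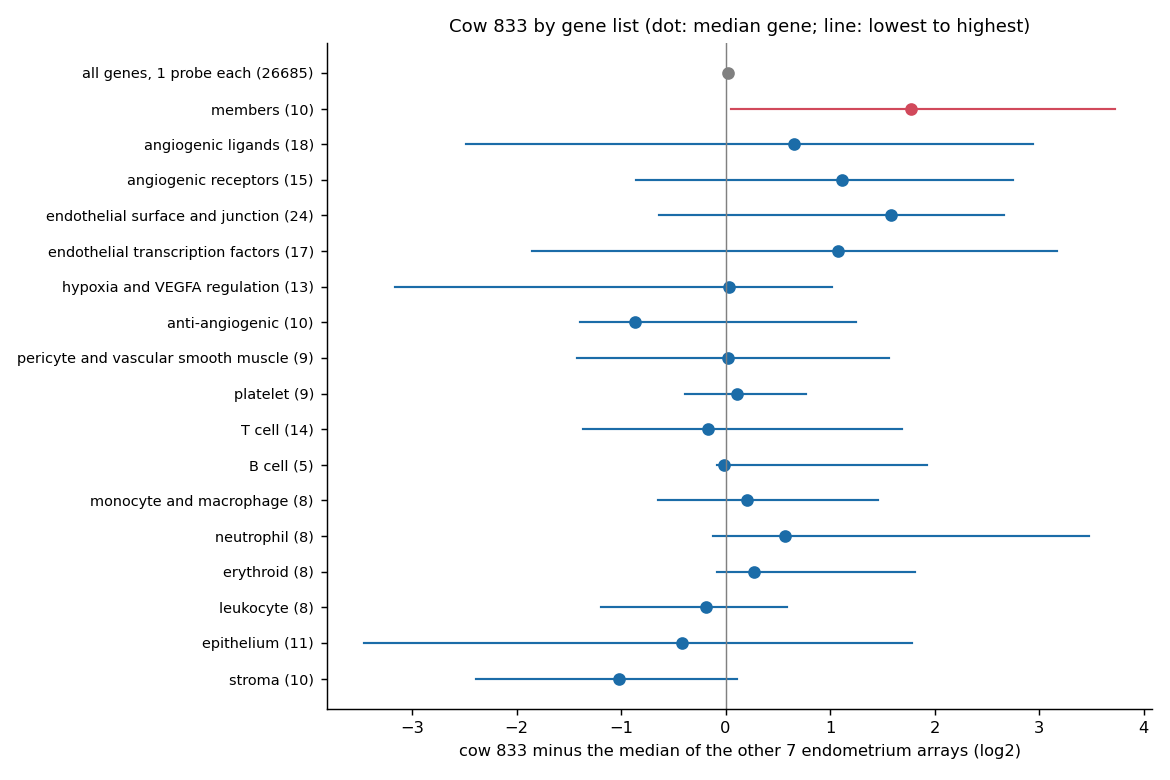
Endometrium of SCE cow 833 minus the median of the other 7 endometrium arrays (horizontal axis, log2) for each list of genes, with the number of measured genes in brackets. The dot is the median gene and the line runs from the lowest to the highest gene, and for all genes only the median is drawn. The members (median 1.78) and the endothelial surface genes (1.58) lie to the right, and the stromal genes (-1.02) to the left.

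The wider vascular lists were read for the same comparisons, by 1 probe a gene. Between tissues in healthy cows, 16 of 24 endothelial surface and junction genes were higher in the endometrium after limma's adjustment and 3 lower, with a median of 2.64. CAV1, the coat protein of caveolae, was at least 160-fold higher (limma, adjusted p = 2.88e-10) and the sialomucin EMCN at least 142-fold higher (limma, adjusted p = 1.74e-12), and JAM2, a junctional adhesion molecule, differed by 6.34, with 2 of 4 WBC arrays well above background. Of the angiogenic receptors, 8 of 15 were higher and 2 lower, among them ROBO4, which is known mainly from endothelium, at least 258-fold higher, APLNR, the apelin receptor, at least 46.6-fold and UNC5B at least 47.9-fold. Of the angiogenic ligands, 10 of 18 were higher and 4 lower, led by adrenomedullin (ADM), at least 235-fold higher, PGF, a ligand of FLT1, at least 75.1-fold, and the Notch ligand DLL4, at least 43.7-fold. Endothelial transcription factors were split, with 7 of 17 higher, led by NR2F2 (7.94, with 1 of 4 WBC arrays well above background), SOX18 (5.31) and EPAS1 (5.25), and 7 lower. Of the anti-angiogenic genes, 7 of 10 were higher, led by ADAMTS1 (7.69), SPRY1 (at least 53.6-fold) and SERPINF1 (5.28), and 1 was lower. Of the pericyte and smooth muscle genes, 6 of 9 were higher, led by CNN1 (at least 321-fold), MYH11 (7.54, with 2 of 4 WBC arrays well above background) and ACTA2 (4.79), and 1 was lower. For hypoxia and VEGFA regulation, 2 of 13 were higher, with HIF1A at 2.58, and 3 lower, with EGLN3 at -1.80 and CA9 at -1.37. Platelet genes went the other way, with 7 of 9 lower and PF4 at -8.04. The median over all genes was -0.16.

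When SCE was set against healthy in the endometrium, 0 genes of any of these lists passed limma's adjusted test. Unadjusted, 1 of the 24 endothelial surface and junction genes passed, SELE, the E-selectin that endothelium displays to passing leukocytes, and it was lower in SCE cows. SELE read 6.47, 8.14, 6.19 and 7.24 for the healthy and 5.89, 5.70, 6.13 and 5.78 for the SCE animals, without overlap. It was well above background on 3 healthy arrays and no SCE array, which makes it at least 2.18-fold lower. Its adjusted p in limma was 1, and without cow 833, with a difference of -1.08, it no longer passed unadjusted. No gene of the angiogenic ligands, angiogenic receptors, endothelial transcription factors, hypoxia, anti-angiogenic or pericyte lists passed unadjusted with all cows, where 76 of 26729 genes passed as higher and 56 as lower. Without cow 833, 1 gene of the hypoxia list did, LDHA, which was higher in SCE cows by 1.28. Over all genes, 106 then passed as higher and 46 as lower. Over these lists the median difference ran from -0.40 (anti-angiogenic) to 0.30 (endothelial surface and junction), and without cow 833 the median of the endothelial surface and junction genes was -0.02.

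The genes whose values followed the members most closely were read across the 8 arrays of a tissue, among probes well above background on all 8, which share their slide. The lists are the top of 28469 probes in WBC and of 27734 in the endometrium. Among so many probes, some can reach a high r over 8 arrays by chance. Whether any of these genes exceeds that was not tested. Over the WBC arrays, the genes most like MCAM by its brightest probe, A_73_P045136, were IGFBP4 (Pearson r = 0.993), ELF1 (0.981), WDR5B (0.977), an unnamed transcript (0.976) and SEPTIN2 (0.975). Over the endometrium arrays they were ZNF419 (0.955), RAB27A (0.952), CD97 (0.936), CAMKV (0.932) and KCNS3 (0.930). For CDH5 in the endometrium they were CNOT6L, LOC523795, PECAM1, ARHGEF11 and CASP8AP2, with r between 0.994 and 0.997, and between 0.88 and 0.94 without cow 833. PECAM1 was thus the only other member among them, with r = 0.995 over 8 arrays and 0.937 over the 7 without cow 833. For the MCAM probe A_73_P108951, added after its values had been seen, the named genes most alike were SALL2 (0.94) and BFSP2 (0.91) in WBC, and MGLL, MEF2C and VPS13B (each 0.99) in the endometrium. Without cow 833, r was 0.955 for MGLL, 0.957 for MEF2C and 0.952 for VPS13B.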

How the data were processed

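Arrays of 4 SCE and 4 healthy cows, 1 per tissue, were assigned to groups from the labels. The authors deposited unnormalized spot intensities from Agilent's Feature Extraction software (10.10.1.1), with a table of normalized intensities that differs from quantile-normalized scanner medians by a median of 0.0415% and was used as an alternative. Median signals of 52689 non-control spots were used without background correction. Outlier spots were left out, log2 values were quantile-normalized over 16 arrays and spots of a probe averaged. Each difference was fitted on all probes with limma 3.58.1 (lmFit, treat at 1.2-fold) in R 4.3.3, with Benjamini-Hochberg adjustment at 0.05. SCE was compared with healthy within each tissue, and tissues in 1 model of 4 groups. The fits were tested on simulated data, and plots were drawn with matplotlib 3.10.9. Names came from RefSeq accessions (26517 probes), symbols (6173) or the files (13925). The members, lists and tests were chosen with earlier results of these data known. For each gene the probe with the highest mean signal was given in full, and all probes of MCAM. From each list, up to 3 genes with the largest difference past the test were named. Most alike genes are the 5 with the highest r. A bound ("at least N-fold") replaces a dim array's value by the higher of its own and the lowest signal well above background on that array. The number of arrays limits precision, and p-values measure the spread between cows. WBC and endometrium arrays with the same number are paired through the animal. The correlation of their deviations from the group means over 45939 probes ran from -0.24 (cow 833) to 0.11 (cow 850).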

Additional observations from a re-analysis of the deposited data

Results flagged for a closer look

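In 5 of 44 sets of 4 cows tested for a sample that stands apart by Dixon's ratio, 1 cow did so, where chance gives about 1 in 20 for a single set. The sets share their arrays and are not independent, so 5 of 44 cannot be weighed against that rate. SCE cow 833 was highest in the endometrium for PECAM1 (14.37), CDH5 (10.03), TEK (13.17) and the MCAM probe A_73_P108951 (14.08). Healthy cow 850 was highest in the endometrium for FLT1 (9.01, where the other 3 healthy cows lay between 7.94 and 8.04).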

How the results depend on the processing

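Over the alternatives, the members' counts changed as follows. With the processed signal scaled to the 75th percentile, 1 member probe passed unadjusted as differing between the tissues' SCE effects, against 0. Leaving out single cows gave 0 to 1 (1 without cow 846 and 1 without cow 850). The member probes include MCAM A_73_P108951, whose WBC values chose the gene and enter this contrast, so nothing is read from these counts. With all 16 arrays in 1 fit, the count of member probes lower in WBC of SCE cows was 0, against 1, MCAM A_73_P108951, which is no test since these values chose the gene. Leaving out single cows gave 0 to 1 probes lower in the endometrium of SCE cows than in their WBC, the 1 being PECAM1 A_73_P285396 without cow 833. With the cow as a replicate block, which pairs the arrays of an animal, 20 member probes were higher in the endometrium of healthy and 20 of SCE cows, against 20 and 19, and the block changed no other count. These counts were 18 and 19 with normexp background correction and 22 and 24 with the processed signal. With the authors' normalized values they were 20 and 20. In these 3 settings 18.2% to 20.1% of all probes were higher. No called value of a member's brightest probe reversed under the alternatives that were run. VEGFA passed between tissues with each tissue normalized on its own (1.50 in healthy and 1.16 in SCE cows) and, in healthy cows, with a TREAT threshold of 0 (0.62). With each tissue normalized on its own, 36.9% of all probes were higher in healthy and 36.1% in SCE cows. The cause of these changes was not tested. Probes not well above background in WBC limit what can be read there.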
